A study of Homo sapiens with 6 samples.

Results

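The 10 genes APOE, CLU, LPL, LRP1, SORL1, TREM2, CD33, ABCA7, PICALM and BIN1 were described here. They carry or receive lipoproteins, or lie at loci tied to the risk of Alzheimer's disease. They were chosen by symbol from the 27469 genes of a count table, and all 10 symbols were found. HMC3 is an immortalised human line described as microglial, and its levels of cell type markers are given below. RNA was read in 3 libraries of HMC3 cells given the cytokine interleukin-33 (IL-33) for 24 h and in 3 Control libraries, whose handling the labels do not describe beyond the word Control. The dose of IL-33 is not given in the sources used here. Both groups are of the same line. The labels do not state separate cultures, so a p-value here measures only the spread between libraries, which may be technical.

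Apolipoprotein E (APOE) and clusterin (CLU, also called apolipoprotein J) are the main lipid-carrying proteins made by glia, and lipoprotein lipase (LPL) frees fatty acids from lipoproteins. LRP1 is a large endocytic receptor of the LDL receptor family that takes up APOE particles and amyloid-beta, and SORL1 is a sorting receptor that returns cargo such as the amyloid precursor from endosomes through the retromer. TREM2 and CD33 are microglial surface receptors with opposing signals: TREM2 binds lipids and APOE and signals through the adaptor TYROBP, while CD33 is an inhibitory sialic acid receptor. ABCA7 moves phospholipid across membranes, PICALM is a clathrin adaptor, and BIN1 bends membranes.

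The level of these genes in HMC3 spanned from abundant to undetected. PICALM, CLU, BIN1 and LRP1 were well measured, ABCA7, APOE and SORL1 were sparse, and TREM2, CD33 and LPL were at or near the detection limit. None of the 7 genes that could be tested was called changed with IL-33 (adjusted p under 0.05, edgeR quasi-likelihood test). For the 4 better measured genes, the 95% intervals on the log2 scale lay between -1 and 1. The same held for 96.9% of all tested genes with a level of 10 or more counts per 1e6 counts. SORL1, the sole gene of the 10 whose groups did not overlap, had 43 counts in all with IL-33 and 15 in Control, and the difference did not pass the test. Over all genes tested, the groups did not overlap in 8.06%, with IL-33 higher in 4.54%.

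Start-site windows are shown for the most abundant of these genes and for 2 microglial receptors near the detection limit, because these genes lie at the opposite ends of the range of levels described below. Each runs from 250 bases before to 50 after a RefSeq start site (GRCh38.p14), 5′ to 3′ on the gene's strand, with each CG dinucleotide in capitals. The PICALM window is chr11:86069035-86069334, minus strand, the TREM2 window chr6:41163067-41163366, minus strand, and the CD33 window chr19:51224830-51225129, plus strand.
PICALM: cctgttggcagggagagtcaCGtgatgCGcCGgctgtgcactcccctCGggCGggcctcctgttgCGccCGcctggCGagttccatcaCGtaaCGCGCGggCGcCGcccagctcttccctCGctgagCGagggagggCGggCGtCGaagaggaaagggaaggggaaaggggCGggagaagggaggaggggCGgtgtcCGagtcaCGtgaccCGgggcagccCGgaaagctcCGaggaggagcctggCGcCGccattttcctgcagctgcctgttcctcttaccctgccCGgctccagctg
TREM2: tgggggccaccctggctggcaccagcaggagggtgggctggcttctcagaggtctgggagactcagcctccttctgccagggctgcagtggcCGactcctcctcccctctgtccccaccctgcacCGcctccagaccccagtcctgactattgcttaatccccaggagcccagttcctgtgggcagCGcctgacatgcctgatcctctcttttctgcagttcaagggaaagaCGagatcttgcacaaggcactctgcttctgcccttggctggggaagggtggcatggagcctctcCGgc
CD33: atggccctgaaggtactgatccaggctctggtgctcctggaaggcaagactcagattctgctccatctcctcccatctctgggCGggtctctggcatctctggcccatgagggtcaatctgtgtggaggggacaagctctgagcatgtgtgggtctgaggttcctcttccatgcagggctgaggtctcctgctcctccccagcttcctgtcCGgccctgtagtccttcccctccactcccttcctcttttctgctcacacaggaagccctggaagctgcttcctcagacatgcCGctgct
The PICALM window held 29 CG dinucleotides, the TREM2 window 5 and the CD33 window 3, against a median of 14 over 35116 RefSeq windows of the same length. The number did not follow the order of the levels. SORL1, among the least abundant genes here, had 52, and BIN1 had 38, ABCA7 29, LRP1 23 and APOE 8. The letters GAGGAA, which the myeloid factor PU.1 can bind, were searched on both strands. They occurred 3 times in the CD33 window, 2 times in that of PICALM, 1 time in that of APOE and in none of those of TREM2, LRP1, SORL1, ABCA7 and BIN1, while 27.9% of all windows held them. These are matches of letters in a window, not measured binding. The windows of CLU and LPL were not used here.

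Library totals ran from 8294747 to 10217529 counts with IL-33 and from 5739947 to 9933395 in Control. In counts per 1e6 counts (CPM, with library sizes scaled by TMM), a count of 0 was read with a limit of 3 counts, which is 0.293 to 0.543 CPM depending on the library and covers counting error only. Control 3 had the lowest depth and differed from the rest, lying at 55.0 on the first principal component, where the other 5 libraries lay between -18.0 and 0.86. By edgeR's quasi-likelihood test on 12125 genes, 0 passed a Benjamini-Hochberg adjusted p of 0.05 (0%), and 2.43% had an unadjusted p under 0.05. DESeq2 called 1 gene, which is not among the 10, with 290 at an unadjusted p under 0.05, and limma-voom called 0, with 329. The messenger of the IL-33 receptor, IL1RL1, was read 8 times in IL-33 2 and 3 times in Control 3 and had 0 counts elsewhere.

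The labelled cell type was compared with its markers. In the whole table, 10205 of 27469 genes had 0 counts in all 6 libraries. Of 18 microglia and macrophage genes, 11 had 0 counts in all 6 libraries, among them the lineage factor gene SPI1 (which encodes PU.1), P2RY12, TMEM119, CX3CR1, ITGAM and TYROBP, and 13 had no more than 3 in any library. Their summed level lay between 31.97 and 36.3 CPM with IL-33 and between 23.9 and 45.8 CPM in Control. Of 12 fibroblast and mesenchymal genes, 10 could be tested, with a summed level between 8016 and 8505 CPM with IL-33 and between 7416 and 8873 CPM in Control, while COL3A1 and ACTA2 were at 0 counts. FN1 measured 3636 ± 188 CPM with IL-33 and 3708 ± 200.5 CPM in Control (SD, n = 3 each). The summed level of 8 astrocyte genes lay between 85.5 and 94.4 CPM with IL-33 and between 90.9 and 105 CPM in Control, mostly from GJA1, with AQP4 at 0 counts. The 8 neuronal genes summed to between 30.8 and 40.7 CPM with IL-33 and between 26.3 and 35.6 CPM in Control, with STMN2 at 0 counts. The 6 endothelial genes summed to at most 2.02 CPM in any library, with TEK at 0 counts. In each of the 5 lists the ranges of the groups overlapped, and whether cell identity bears on the levels below was not tested.

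**Figure D1:**
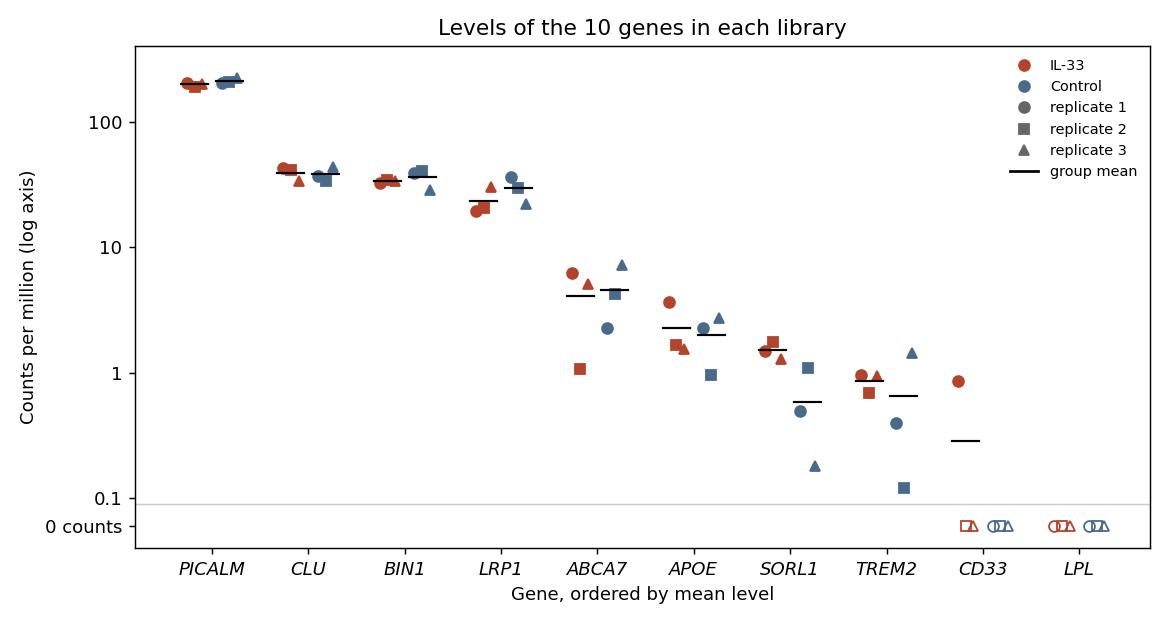
Level of each of the 10 genes in each library, in CPM on a log axis, with IL-33 to the left of Control for each gene, a marker shape for each replicate number and a line at the group mean. Open markers at the bottom are libraries with 0 counts; the groups overlap in every gene with counts except SORL1, where the 3 IL-33 values lie above the 3 Control values.

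Because the libraries read 1 tag near the 3' end of a transcript, CPM need not be divided by gene length, and levels were compared between genes as CPM. The annotation and strand setting used for counting are not given, and their part in the differences between genes was not tested. PICALM had the highest mean over the 6 libraries, 204 CPM, which was 5.31 times that of CLU at 38.5 CPM, and their ranges did not overlap. CLU, BIN1 at 34.7 CPM and LRP1 at 26.3 CPM came next, each with a range that overlapped that of its neighbour. LRP1 was 6.05 times as high as ABCA7 at 4.34 CPM, again without overlap. From ABCA7 down through APOE at 2.13, SORL1 at 1.05, TREM2 at 0.758 and CD33 at 0.142 CPM, each range overlapped the next. LPL was at 0. PICALM stood above 93.0% of the genes tested, and LRP1 above 52.9%.

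Among the lipoprotein genes, CLU was the sole abundant one. It measured 42.3, 40.9 and 33.5 CPM in the IL-33 libraries and 36.7, 33.5 and 43.8 CPM in the Control libraries. IL-33 3 lay with Control 2 at the bottom, Control 3 was the highest of all 6, and the groups overlapped. The log2 fold change was 0.038 ± 0.17 (SE), with a 95% interval from -0.31 to 0.39, that is from 0.807-fold to 1.31-fold.

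APOE, on chromosome 19 from 44905754 to 44909393 (GRCh38), had 34, 17 and 13 counts with IL-33 and 23, 8 and 15 in Control. Scaled to depth these were 3.62, 1.66 and 1.53 CPM with IL-33 and 2.28, 0.962 and 2.71 CPM in Control. IL-33 1 was the highest and Control 2 the lowest, with the other 4 libraries mixed between them. The log2 fold change was 0.21 ± 0.64, and its interval, from -1.13 to 1.55, did not settle a direction. Without IL-33 1 the value was -0.30. The end of APOE overlaps AC011481.3 on the same strand, from 44909375 on, and that symbol was not among the 27469 genes. Whether this overlap bears on the APOE counts was not tested. LPL had 0 counts in all 6 libraries, where a limit of 3 counts a library is 0.293 to 0.543 CPM.

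Among the receptors, LRP1 had the smallest unadjusted p of the 7 genes tested. It lies on chromosome 12 from 57128493 to 57213351 (GRCh38) and overlaps STAT6 on the opposite strand up to 57132139, a stretch that holds neither gene's 3' end. LRP1 measured 19.3, 20.3 and 29.9 CPM in the IL-33 libraries and 36.2, 29.7 and 22.1 CPM in the Control libraries. IL-33 1 and IL-33 2 were the lowest of all 6, but IL-33 3 lay above Control 2 and Control 3. The log2 fold change was -0.35 ± 0.22, with an interval from -0.81 to 0.11, an unadjusted p of 0.123 (adjusted p 0.999, edgeR quasi-likelihood test). Without Control 3 the value was -0.52, with an unadjusted p of 0.00966 and an adjusted p of 0.637 by the same test, while 6.3% of all genes then had an unadjusted p under 0.05 and 0.0476% an adjusted one. Without IL-33 3 the value was -0.58, with an unadjusted p of 0.0296 and an adjusted p of 0.9997 by the same test. In that fit 291 of 12543 genes had an unadjusted p under 0.05. LRP1 had -0.17 without Control 1, so that the size of its value depended on single libraries in both directions.

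The share of LRP1 within its receptor family gives a measure that does not depend on how libraries are scaled. Of the counts of 13 LDL receptor family genes, LRP1 took 4.03%, 4.06% and 5.87% in the IL-33 libraries and 7.13%, 5.91% and 4.34% in the Control libraries. The exact binomial intervals were 3.47% to 4.65% in IL-33 1 and 6.44% to 7.87% in Control 1, and Control 3, at 3.62% to 5.16%, lay with IL-33 1 and IL-33 2. Those of IL-33 3, 5.19% to 6.61%, and of Control 2, 5.22% to 6.67%, nearly coincided. Binomial intervals cover counting error only. The means were 4.65% ± 1.05 with IL-33 and 5.80% ± 1.40 in Control (SD, n = 3 each), a difference of -1.14 percentage points with a two-sided exact permutation p of 0.2, where 3 against 3 allows no less than 0.1. The difference was -0.47 points without Control 1, -1.87 without Control 3 and -1.75 without IL-33 3. With LRP10, LRP11 and LRP12 left out of the family, the difference was -1.87 points. LRP10 alone held 25.4% of the family's counts, so every LRP1 share rises without these genes. The size of that difference therefore cannot be set beside the others.

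**Figure D2:**
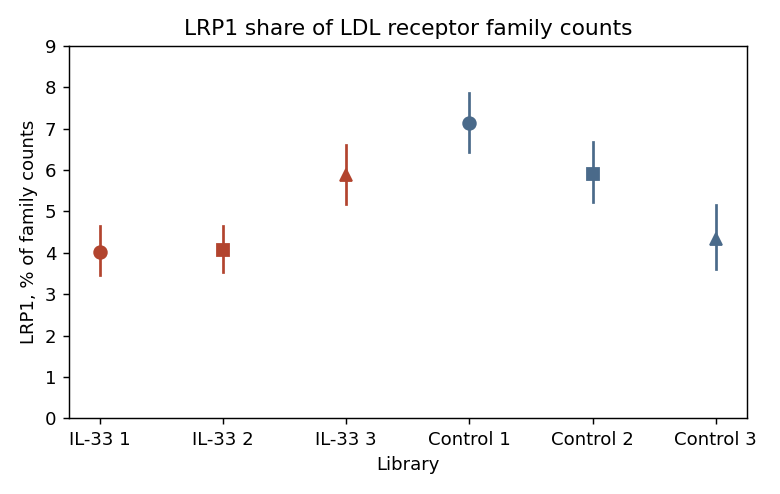
Share of LRP1 among the counts of 13 LDL receptor family genes in each library, in percent, with exact 95% binomial intervals as vertical lines. IL-33 1 and IL-33 2 lie near 4.03% and 4.06%, IL-33 3 and Control 2 near 5.87% and 5.91%, and Control 3 at 4.34%.

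Other receptors of the family were set beside LRP1. Of the family's counts over all libraries, LRP10 took 25.4%, LRP12 8.28%, VLDLR 6.39%, LRP1 5.29%, LRP6 5.03% and LRP8 4.86%. LRP12 measured 44.6 ± 3.78 CPM with IL-33 and 36.8 ± 4.82 CPM in Control, with a log2 fold change of 0.27 ± 0.16 and groups that did not overlap, as in 4.54% of all genes tested in that direction. LRP10 measured 121 ± 5.95 CPM with IL-33 and 136 ± 7.73 CPM in Control, a log2 fold change of -0.16 ± 0.11. The kidney receptor gene LRP2 had 0 counts and LRP1B had 4 counts in all.

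SORL1 lies on chromosome 11 from 121452203 to 121633693. It had 14, 18 and 11 counts with IL-33 and 5, 9 and 1 in Control, which are 1.49, 1.76 and 1.30 CPM with IL-33 and 0.496, 1.08 and 0.181 CPM in Control. Every IL-33 library lay above every Control library, as in 4.54% of all genes tested, though IL-33 3 and Control 2 were close. The exact Poisson intervals of these 2 libraries, 0.647 to 2.32 CPM and 0.495 to 2.05 CPM, overlapped almost fully. The low-count filter asked for 1.12 CPM or more in 3 libraries, which in SORL1 the IL-33 libraries reached and the Control libraries did not. SORL1 was therefore tested because of its level with IL-33, and its entry into the test already favoured a positive value.

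The log2 fold change of SORL1 was 1.30 ± 0.82, with an interval from -0.42 to 3.01, an unadjusted p of 0.130 (adjusted p 0.999, edgeR quasi-likelihood test). Without the filter it was 1.31, with an unadjusted p of 0.212 by the same test. It was 2.02 without Control 2 and 0.95 without Control 3.

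TREM2, on chromosome 6 from 41158506 to 41163186, had 9, 7 and 8 counts with IL-33 and 4, 1 and 8 in Control, and did not pass the filter. The levels were 0.959, 0.684 and 0.943 CPM with IL-33 and 0.397, 0.120 and 1.45 CPM in Control. The IL-33 libraries were close to each other, and the Control libraries lay on both sides of them. The pooled ratio of IL-33 to Control was 1.57, with an exact interval from 0.769 to 3.36 that covers counting error only. The genes of its adaptor TYROBP and of the kinase SYK, which acts after it, both had 0 counts in all 6 libraries.

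CD33, on chromosome 19 from 51225064 to 51243860, was read 8 times in IL-33 1 and had 0 counts in every other library. In IL-33 1 this was 0.853 CPM, with an exact Poisson interval from 0.368 to 1.68. No fold was computed from 1 library. The related receptor genes SIGLEC7, SIGLEC9, SIGLEC10 and SIGLEC11 had 0 counts in all libraries.

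The lipid transporter gene ABCA7, on chromosome 19 from 1040101 to 1065572, varied widely between the libraries of a group. It had 58, 11 and 43 counts with IL-33 and 23, 35 and 40 in Control, or 6.18, 1.07 and 5.07 CPM with IL-33 and 2.28, 4.21 and 7.24 CPM in Control. The lowest library and the second highest were both IL-33 libraries. The Poisson interval of IL-33 2, from 0.536 to 1.92 CPM, did not reach that of IL-33 1, from 4.69 to 7.99 CPM. These intervals cover counting error only, and every pair of libraries of a group differed by more than that over the whole table. IL-33 over Control gave a log2 fold change of -0.13 ± 0.57, with an interval from -1.34 to 1.08. It was 0.33 without IL-33 2 and 0.34 without Control 3.

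Among the endocytic genes, PICALM had the narrowest interval of the 7 genes tested. PICALM, on chromosome 11 from 85957684 to 86069882, had 203, 188 and 201 CPM with IL-33 and 203, 208 and 222 CPM in Control. IL-33 2 was the lowest and Control 3 the highest, and IL-33 1 and Control 1 were nearly equal. PICALM had a log2 fold change of -0.095 ± 0.096, with an interval from -0.30 to 0.11, that is from 0.815-fold to 1.08-fold.

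BIN1, on chromosome 2 from 127048027 to 127107355, had 32.2, 34.3 and 33.7 CPM with IL-33 and 39.0, 40.4 and 28.6 CPM in Control. The IL-33 libraries lay close together, between Control 1 and Control 2 above and Control 3 below. BIN1 had a log2 fold change of -0.12 ± 0.17, with an interval from -0.47 to 0.24, and it was -0.25 without Control 3 and -0.025 without Control 2.

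Control 3 was the highest Control library in 5 of the 8 genes with Control counts (APOE, CLU, TREM2, ABCA7 and PICALM) and the lowest in the other 3 (LRP1, SORL1 and BIN1). Over all genes tested it was the highest in 39.2% and the lowest in 39.9%. The part of this library's depth in the values was not tested.

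**Figure D3:**
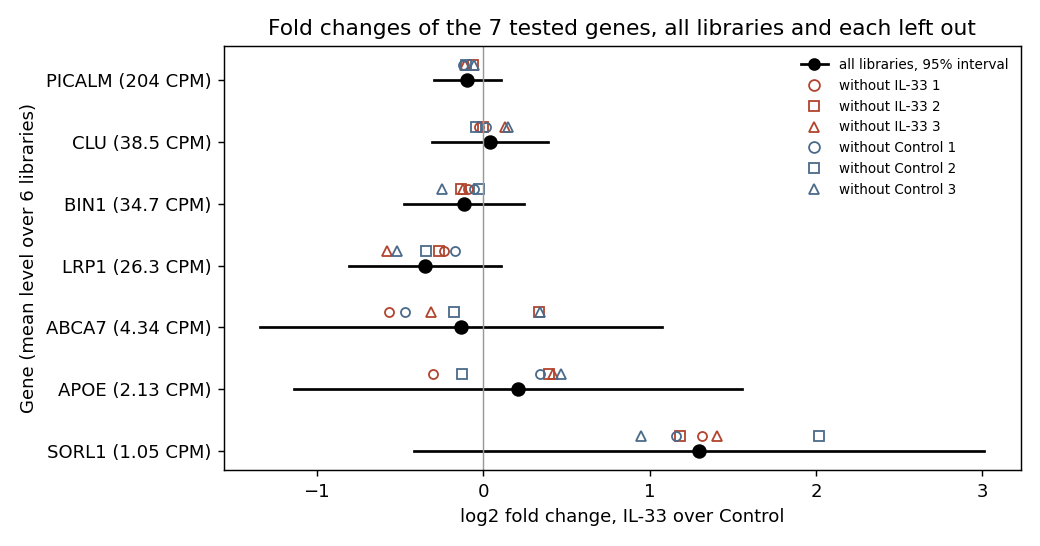
Log2 fold change of IL-33 over Control for the 7 genes tested, with 95% intervals as lines, and the values with each library left out as open markers above them. Intervals widen as the level falls, from PICALM (-0.30 to 0.11) to SORL1 (-0.42 to 3.01), and all 7 include 0.

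The genes that act around these 10 were followed in 6 lists. None of their members was called changed, as in the whole table, where 0% were. Over all 12125 genes tested the median log2 fold change was -0.0051.

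Of 20 LDL receptor family and sorting receptor genes, 15 could be tested, 5 of them above 0 and 10 below, with a median log2 fold change of -0.065 and 0 changed. Of 28 genes of apolipoproteins, lipid efflux and lipases, 18 were tested, 9 above 0 and 9 below, with a median of 0.0055 and 0 changed. The triglyceride lipase PNPLA2 measured 150 ± 12.7 CPM with IL-33 and 160 ± 22.3 CPM in Control, and SEL1L, which LPL needs to leave the endoplasmic reticulum, 86.3 ± 6.81 and 88.7 ± 4.36 CPM. The log2 fold changes of NR1H2, a sterol-sensing nuclear receptor, and of the lipid transporter ABCA2 were 0.16 ± 0.19 and -0.28 ± 0.30. APOB, APOC2, ABCG1, CD36 and GPIHBP1 had 0 counts.

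Of 31 genes of clathrin endocytosis and membrane bending, 27 were tested, 10 above 0 and 17 below, with a median of -0.040 and 0 changed. The most abundant was the cargo adaptor DAB2, which also binds the tails of LDL receptor family proteins, at 449 ± 13.1 CPM with IL-33 and 449 ± 27.4 CPM in Control. The clathrin adaptor subunit AP2M1 measured 404 ± 7.27 CPM with IL-33 and 415 ± 43.2 CPM in Control. BIN3, a relative of BIN1, measured 25.6 ± 2.32 CPM with IL-33 and 19.8 ± 1.65 CPM in Control, a log2 fold change of 0.37 ± 0.19 with groups that did not overlap (4.54% of all genes tested in that direction). AP2A2, another adaptor subunit, had 0.22 ± 0.16. SNAP91, the neuronal relative of PICALM, and BIN2 had 0 counts.

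All 18 retromer and endosomal sorting genes were tested, 11 above 0 and 7 below, with a median of 0.017 and 0 changed. VPS35, the core of the retromer that SORL1 works with, measured 197 ± 12.7 CPM with IL-33 and 188 ± 27.0 CPM in Control. The sorting nexin SNX1 measured 89.5 ± 4.06 CPM with IL-33 and 71.9 ± 13.8 CPM in Control, a log2 fold change of 0.31 ± 0.14 with groups that did not overlap. It was the sole gene of the 6 lists with an unadjusted p under 0.05 (0.0376, adjusted p 0.999, by edgeR's quasi-likelihood test), where 1.45% of all genes had one in that direction. Groups also did not overlap in WASHC5, a subunit of the WASH complex on endosomes named after its values were seen, which measured 17.6 ± 1.23 CPM with IL-33 and 20.7 ± 1.94 CPM in Control. Groups that did not overlap were found in 4.54% of all genes tested with IL-33 higher, as for SNX1, and in 3.51% with IL-33 lower, as for WASHC5. SNX6 had -0.20 ± 0.11, and SNX5 0.018 ± 0.11 at 159 CPM.

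Of 17 signalling partners of TREM2 and CD33, 8 had 0 counts and 4 could be tested, with a median of -0.017 and 0 changed. In the whole table, 10205 of 27469 genes had 0 counts in all libraries and 12125 were tested. The tyrosine phosphatase PTPN11, which can bind CD33, measured 123 ± 9.63 CPM with IL-33 and 131 ± 12.8 CPM in Control, and the kinase subunit PIK3CD 44.4 ± 0.712 and 40.3 ± 3.53 CPM. Of 41 other genes at Alzheimer risk loci, 23 were tested, 11 above 0 and 12 below, with a median of -0.038 and 0 changed. CELF1, an RNA-binding protein, measured 520 ± 5.24 CPM with IL-33 and 481 ± 36.9 CPM in Control, with groups that did not overlap (4.54% of all genes tested in that direction). GRN, which encodes the lysosomal protein progranulin, measured 420 ± 25.3 CPM with IL-33 and 436 ± 53.3 CPM in Control. KAT8, a histone acetyltransferase, had a log2 fold change of -0.51 ± 0.27. CR1, MS4A6A, SPI1, ACE, BLNK, ECHDC3, HS3ST1 and CLNK had 0 counts.

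**Figure D4:**
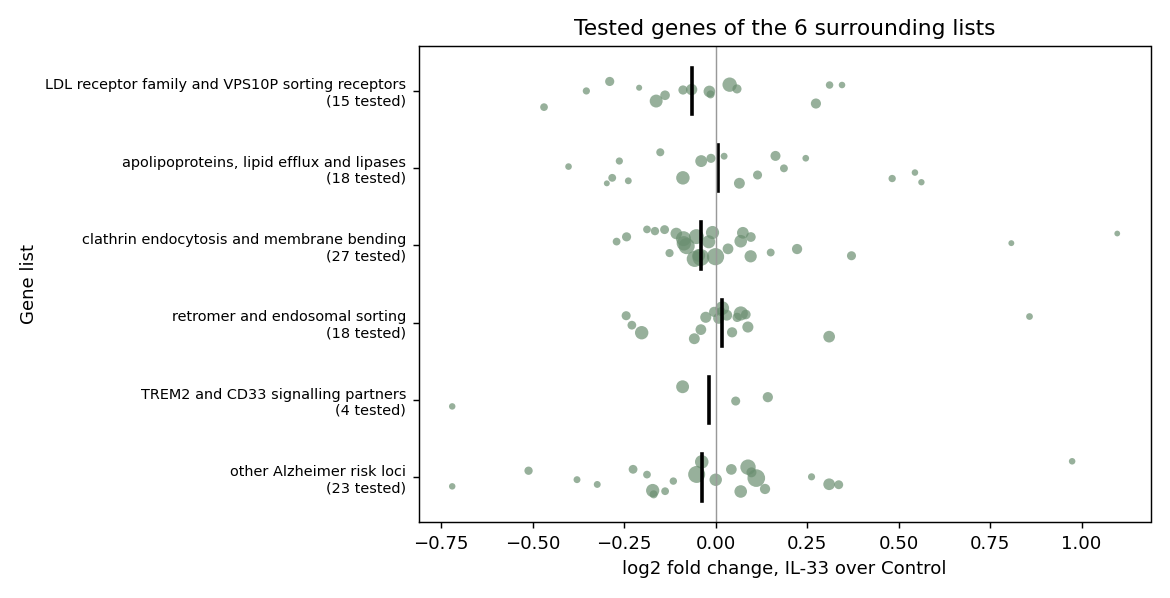
Log2 fold change of IL-33 over Control for each tested gene of the 6 lists, 1 point a gene with its area growing with the level, and a black line at the list's median. The medians lie between -0.065 and 0.017, and points far from 0 are small, that is sparsely counted.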

How the data were processed

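Per the labels' protocols, HMC3 RNA was isolated by TRIZOL and sequenced from 3' ends (Lexogen QuantSeq, FWD version). The authors deposited whole-number read counts per gene symbol. The submitters' processing notes name STAR 2.7.5a, HTSeq 0.6.1, edgeR and hg38 without roles. Annotation and strand setting remain not given in the sources used here. The table held 27469 genes with values, and 1 row without values was left out.

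The members and lists were chosen with earlier results of these data known. Genes passing filterByExpr (count minimum 10, total minimum 15) entered edgeR 4.0.16 (R 4.3.3): TMM scaling, robust quasi-likelihood test, group as the sole term, Benjamini-Hochberg adjustment over all 12125 genes. CPM used TMM-scaled sizes. A standard error is the size of the log2 fold change over the square root of F. Alternatives were DESeq2 1.42.0, limma-voom (limma 3.58.1), other scalings and filters, the replicate block and each library left out. The fit was tested on simulated data. Positions came from GENCODE 29 (GRCh38) by symbol, promoter windows from RefSeq (of several, the one with most GENCODE starts within 100 bases). All 10 members were named; of each list, the 2 genes of smallest p at 10 CPM or more and the 2 most abundant were named, with some genes not reported here. Further genes were named for the LDL receptor family's shares, as markers or as at 0 counts, after their values were seen. Of 155 list entries all were found, 2 under an older symbol. No libraries of a group agreed within sampling noise (chi-square per degree of freedom 5.56 or more). Figures were drawn with matplotlib 3.10.9.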

Additional observations from a re-analysis of the deposited data

How the results depend on the processing

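The count of 0 changed members held under each scaling (DESeq2's size factors or none), each filter (none, or 10 CPM), DESeq2, limma-voom, the replicate block and each library left out. The count of changed genes in the whole table was 3 without the low-count filter (NEAT1, MALAT1 and KIRREL3-AS2), 1 with DESeq2 (KIRREL3-AS2), 0 to 6 with a library left out (6 without Control 3) and 0 under the other alternatives; the cause was not tested. At 10 CPM SORL1, APOE and ABCA7 were not tested. Of 88 alternative fold changes of members, 82 kept their direction and 6 turned, each with a library left out: APOE had -0.30 without IL-33 1 and -0.13 without Control 2 (range with a library left out -0.30 to 0.47), CLU had -0.027 without IL-33 1 and -0.043 without Control 2 (range -0.043 to 0.15), and ABCA7 had 0.33 without IL-33 2 and 0.34 without Control 3 (range -0.56 to 0.34). The 88 include refits of the same 6 libraries with another scaling, filter or tool, where the same counts leave little room for a turn. The difference in LRP1 share was -1.87 to -0.47 percentage points with a library left out. It was also below 0 without LRP10, LRP11 and LRP12, at -1.87 points of a smaller family total, which raises every share. Pairing by replicate number is not stated in the labels, and deviations of same-numbered libraries correlated at -0.086, 0.027 and -0.14 across genes, with 1 of the 3 IL-33 libraries correlating best with its own number. With the replicate block 0 genes changed, and LRP1 had -0.35 and SORL1 1.45. Precision differed with level: the interval of SORL1, at 1.05 CPM, spanned 0.748-fold to 8.06-fold, and that of PICALM, at 204 CPM, 0.815-fold to 1.08-fold.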
